A study of Mus musculus with 12 samples.

Results

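The genes of calcineurin, protein kinase C and phospholipase C on a mouse cancer pathway panel were compared between ocular lesions, healthy eyes and medulloblastomas. These are *Plcb1* and *Plcb4* for phospholipase C beta, *Prkca* and *Prkcb* for protein kinase C, *Ppp3ca*, *Ppp3cb*, *Ppp3cc* and *Ppp3r1* for calcineurin, and *Nfatc1* for a transcription factor that calcineurin acts on. They were taken by gene symbol from a list put together with earlier results of these data known, and make up 9 of the 770 genes measured. All 9 were found, and all entered every test.

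The series holds 12 samples, each a single eye, lesion or tumor of an individual animal. *RBS* lesions (n = 5) are tumor-like masses that had largely replaced the eye of *Rax-creERT2::Ctnnb1(ex3)Fl/+SmoM2Fl/+* embryos, which were given tamoxifen at E8.5 and examined at E18.5. Control eyes (n = 4) came from E18.5 *Ctnnb1(ex3)Fl/+SmoM2Fl/+* embryos, which carry both floxed alleles but no Cre. Tamoxifen was given to the pregnant females, but the sources used here do not state whether these 4 control embryos came from treated litters, and a part of tamoxifen itself in the differences between lesions and control eyes was not tested. Shh-MBs (n = 3) are hindbrain tumors of *hGFAP-cre::SmoM2Fl/+* mice aged 14 days, which do not carry the *Ctnnb1* allele. The *SmoM2* allele, heterozygous in all 12 animals, encodes an active form of Smoothened once Cre has acted, and the *Ctnnb1(ex3)* allele, once cut by Cre, encodes a beta-catenin that escapes degradation. The *Rax* promoter directs Cre to retinal precursors, and the *hGFAP* promoter to neural progenitors. Tissue, age, Cre driver and the *Ctnnb1* allele all separate Shh-MBs from both eye groups and cannot be told apart in any comparison with them. Tamoxifen, given for the lesions and not recorded for Shh-MBs, also separates these groups. Control eyes have no Cre, so an active *SmoM2* also separates Shh-MBs from them.

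Phospholipase C beta is switched on by G proteins of the Gq class and splits a membrane lipid into inositol trisphosphate, which releases calcium from internal stores, and diacylglycerol. Calcium and diacylglycerol together activate the conventional isoforms of protein kinase C. Calcium bound to calmodulin activates the phosphatase calcineurin, a dimer of a catalytic A subunit and a regulatory B subunit, which removes phosphate from NFAT factors so that they enter the nucleus. This chain is shared by many neurons and is also the route of the calcium branch of Wnt signaling.

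Values are a normalized signal on a linear scale, and differences are differences of means of log2(signal + 1) with their standard error from limma. A gene was called where its *p*-value, adjusted by Benjamini-Hochberg over all 770 genes, was below 0.05. Depth lay between 335350 and 716977 counts above background per sample. RNA came from whole tissue, in which fewer cells of a type and less RNA per cell cannot be told apart. Each probe binds its own target with its own efficiency, so levels are compared between samples and never between genes.

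The comparison with control eyes asks what sets a lesion apart from the healthy eye of the same age. In *RBS* lesions, 7 of the 9 genes were higher than in control eyes, 1 was lower and 1 was not called. On values centred by the median of each sample, 4 were higher, and *Ppp3cb*, *Ppp3cc* and *Prkcb* were no longer called. Over the panel, 33% of genes were called higher and 18.2% lower in this comparison. The median log2 difference of the 9 genes was 0.58, beside 0.17 for all genes. The groups did not overlap for 8 of the 9 genes, whereas this held for 43.4% of the panel. Only *Plcb1* and *Prkca* differed by more than 2-fold, and these were the members called under all 22 alternative settings of the analysis.

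**Figure D1:**
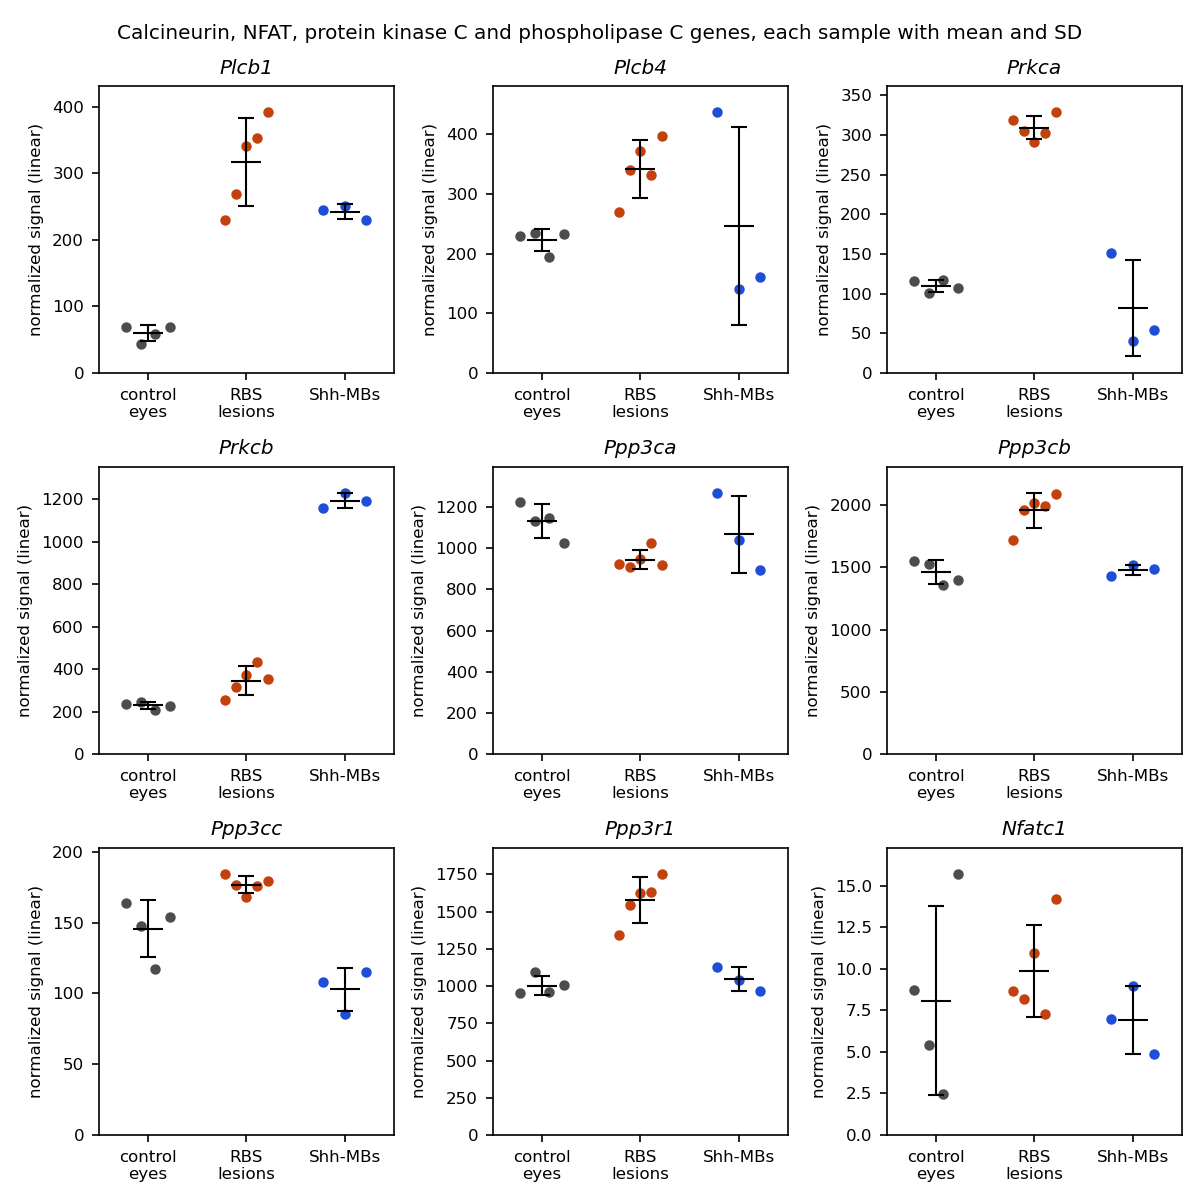
Normalized signal (linear scale, from 0) of the 9 genes in every sample of control eyes (n = 4), *RBS* lesions (n = 5) and Shh-MBs (n = 3), with points in the order of the sample numbers, and the mean and SD of each group in black. *Plcb1* is at most 68.8 in control eyes and at least 230.2 in all other samples, *Prkcb* is at least 1160.3 in Shh-MBs and at most 435 in all other samples, and Shh-MB 1 lies apart from the other tumors for *Plcb4* and *Prkca*.

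The promoters of the genes that rose together were set side by side with a motif search. RefSeq promoter windows (GRCm38.p6) were at hand for 6 of the 9 genes, in 7 windows, and the 250 bases before the annotated start were read. Shown are *Plcb1* and *Prkca*, which differed most from control eyes, and *Ppp3r1* and *Ppp3cb*, which encode the subunits of a calcineurin dimer. Each is written 5′ to 3′ on the strand of the gene, and capitals mark the NFAT core GGAAA and the GC box GGGCGG, where each was searched on both strands, so that capitals may also spell the reverse complement, and neighbouring matches may overlap:
*Plcb1*, chr2:134785914-134786163, plus strand: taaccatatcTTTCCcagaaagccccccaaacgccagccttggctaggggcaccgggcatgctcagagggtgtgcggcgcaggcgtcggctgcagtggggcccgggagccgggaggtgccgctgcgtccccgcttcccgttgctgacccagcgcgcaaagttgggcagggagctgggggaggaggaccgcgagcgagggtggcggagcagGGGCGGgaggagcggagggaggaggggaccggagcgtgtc
*Prkca*, chr11:108343889-108344138, minus strand: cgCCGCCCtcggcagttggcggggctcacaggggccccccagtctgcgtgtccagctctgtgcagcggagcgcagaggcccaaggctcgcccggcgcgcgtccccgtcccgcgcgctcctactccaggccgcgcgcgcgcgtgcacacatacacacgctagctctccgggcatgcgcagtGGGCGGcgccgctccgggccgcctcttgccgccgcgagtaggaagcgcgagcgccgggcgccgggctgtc
*Ppp3r1*, chr11:17159048-17159297, plus strand: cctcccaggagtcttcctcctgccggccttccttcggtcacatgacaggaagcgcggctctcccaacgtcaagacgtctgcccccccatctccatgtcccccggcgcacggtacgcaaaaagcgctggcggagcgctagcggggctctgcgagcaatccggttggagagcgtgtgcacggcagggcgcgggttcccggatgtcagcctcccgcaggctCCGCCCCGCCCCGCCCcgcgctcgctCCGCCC
*Ppp3cb*, chr14:20546574-20546823, minus strand: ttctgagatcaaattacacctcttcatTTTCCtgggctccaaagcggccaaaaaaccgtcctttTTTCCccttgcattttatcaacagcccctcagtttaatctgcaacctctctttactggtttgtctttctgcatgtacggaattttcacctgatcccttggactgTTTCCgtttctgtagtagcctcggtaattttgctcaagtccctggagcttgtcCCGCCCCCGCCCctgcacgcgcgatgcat

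For TCF/LEF factors, CTTTGAA and its relative CTTTGAT were searched on both strands, as were the forms CTTTGTA and also CTTTGTT. At least 1 of these is present in 14.8% of all 32851 promoter windows of the same length, and the Gli motif GACCACCCA in 0.225%. Neither string of letters is in any of the 7 windows of these genes. The NFAT core, present in 55.6% of all windows, starts 240 bases before the start of *Plcb1* and has 3 matches in *Ppp3cb*. It is in neither the *Prkca* nor the *Ppp3r1* window. The GC box, found in 32.7% of all windows, has 4 matches in *Ppp3r1*, 2 each in *Prkca* and *Ppp3cb* and 1 in *Plcb1*. Of the windows not shown, that of *Prkcb* has 1 GC box and no NFAT core. One window of *Plcb4* has 7 GC boxes and no NFAT core, and the other has 1 NFAT core and no GC box. These are matches of letters and not evidence of binding.

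*Plcb1*, the phospholipase C beta isoform abundant in forebrain neurons, showed the largest rise of the 9 genes in *RBS* lesions. Its signal was 68.6, 42.9, 58.8 and 68.8 in the control eyes, 230.2, 269, 341, 353 and 392 in the *RBS* lesions, and 245, 252 and 231 in the Shh-MBs. Every lesion and every tumor lay above every control eye, and the lesions spread more widely than the tumors. In *RBS* lesions the log2 difference to control eyes was 2.39 ± 0.197 (SE), a 5.22-fold higher level (limma, adjusted *p* = 2.02e-05), which placed *Plcb1* at rank 13 of 770 from the highest. In Shh-MBs the difference to control eyes was 2.03 ± 0.182 (adjusted *p* = 0.000183), or 4.07-fold, at rank 17. The difference between lesions and tumors was 0.36 (95% interval −0.063 to 0.78) and was not called (adjusted *p* = 0.122). Its sign turned to −0.49, −0.21 and −0.015 under 3 other scalings, and without *RBS* lesion 1 it was 0.47 (adjusted *p* = 0.0243).

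*Plcb4*, the isoform known from cerebellar Purkinje cells and from the retina, rose less. Its signal was 229, 235, 195 and 233 in control eyes, 269.6, 340.1, 371, 332 and 397 in *RBS* lesions, and 437, 140.1 and 160.1 in Shh-MBs. All lesions lay above all control eyes, while the tumors lay on both sides, with Shh-MB 1 above and the other tumors below every control eye. The log2 difference between lesions and control eyes was 0.61 ± 0.125 (adjusted *p* = 0.00321), or 1.52-fold. In a fit of all 12 samples, which pools the spread of the 3 groups, the adjusted *p* was 0.102. Lesions and tumors differed by 0.66 (95% interval −0.16 to 1.48, adjusted *p* = 0.142), which became 1.17 (adjusted *p* = 0.000689) without Shh-MB 1. Tumors and control eyes differed by −0.054 (adjusted *p* = 0.926), and without Shh-MB 1 by −0.57 (adjusted *p* = 0.0165).

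The isoforms of protein kinase C were highest in different groups. *Prkca*, which encodes the widely expressed alpha isoform, had signals of 116, 101, 117 and 107 in control eyes and 319, 304, 291, 303 and 329 in *RBS* lesions. In Shh-MBs it was 151, 40.8 and 54.1. Lesions were all above control eyes and tumors, and within each eye group the values were close together. *Prkca* was 2.79-fold higher in lesions than in control eyes, with a log2 difference of 1.48 ± 0.0818 (adjusted *p* = 3.12e-06, rank 54 of 770). Against Shh-MBs the difference was 2.14 ± 0.373 (adjusted *p* = 0.00126), a 4.39-fold higher level in lesions. This difference was 1.29 on median-centred values and 1.32 after quantile normalization, both still called, and with the methods' t-test the adjusted *p* was 0.104. Between Shh-MBs and control eyes it was −0.65 (95% interval −1.67 to 0.36, adjusted *p* = 0.277), with Shh-MB 1 above and the other tumors below all control eyes. Without Shh-MB 1 this difference was −1.21 (adjusted *p* = 0.00148), although on the values centred by the median or quantile normalized over all 3 tumors it was 0.013 and 0.059.

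*Prkcb*, the beta isoform, known from B cells and brain, was the only member higher in every Shh-MB than in every other sample. Its signal was 236, 245, 209.6 and 224 in control eyes, 255, 314, 374, 435 and 353 in *RBS* lesions, and 1160.3, 1229.5 and 1192 in Shh-MBs. The 3 groups did not overlap, and the tumors were nearly equal to each other. Shh-MBs were 5.21-fold above control eyes (log2 difference 2.38 ± 0.0945, adjusted *p* = 7.09e-06), at rank 10 of 770 from the highest. Lesions were lower than tumors by a log2 difference of −1.81 ± 0.170 (adjusted *p* = 4.55e-05), rank 18 of 770 from the lowest. They were 1.49-fold above control eyes, with a log2 difference of 0.58 ± 0.150 (adjusted *p* = 0.0106), which on median-centred values was 0.40 (adjusted *p* = 0.0624). Summed signal of the blood and immune markers, 8 of 15 of which are on the panel, was 141 to 211 in control eyes, 242 to 317 in lesions and 144 to 276 in tumors. Lesions exceeded control eyes in this sum without overlap, as for *Prkcb*, while tumors overlapped with both, and the part of these cells in *Prkcb* was not tested.

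Calcineurin differed less, and its subunits did not move as one. *Ppp3r1*, which encodes the regulatory B subunit, had signals of 956, 1097, 957 and 1005 in control eyes, 1339.7, 1543, 1624, 1635 and 1752 in *RBS* lesions, and 1130.1, 1039 and 970.2 in Shh-MBs. *Ppp3cb*, for the catalytic A beta subunit, had signals of 1552, 1531, 1361 and 1398, then 1724, 1964, 2016, 1994 and 2091, and 1434, 1516 and 1489 in the same order. For both genes every lesion was above every control eye and every tumor, and control eyes and tumors overlapped. The log2 difference between lesions and control eyes was 0.65 ± 0.0988 for *Ppp3r1* (1.57-fold, adjusted *p* = 0.000571) and 0.42 ± 0.0886 for *Ppp3cb* (1.34-fold, adjusted *p* = 0.00352). For *Ppp3cb* it was 0.24 on median-centred values (adjusted *p* = 0.0838).

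*Ppp3ca*, the A alpha subunit that predominates in brain, was the only member lower in lesions than in control eyes. Its signal was 1224, 1135, 1149 and 1026 in control eyes, 924, 907, 947, 1026 and 921 in *RBS* lesions, and 1268, 1041 and 895 in Shh-MBs. The highest lesion and the lowest control eye nearly met, and the tumors spanned both groups. The log2 difference of −0.26 ± 0.0831 corresponds to 0.835-fold (adjusted *p* = 0.0267) and was called in 12 of 22 alternatives. It was lost without control eye 1, 2 or 3 and without *RBS* lesion 2, 3 or 5, and with 1 fit over all samples (adjusted *p* = 0.0622).

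*Ppp3cc*, the A gamma subunit best known from testis, had signals of 164, 147, 117 and 154 in control eyes, 184, 177, 168, 176 and 179.8 in *RBS* lesions, and 108, 85.8 and 115 in Shh-MBs. Lesions were highest and tumors lowest, without overlap between neighbouring groups. The log2 difference between lesions and control eyes was 0.29 ± 0.106 (adjusted *p* = 0.0468) and was called in only 6 of 22 alternatives. It was lost when any sample other than control eye 1 was left out (adjusted *p* between 0.0518 and 0.104), and without control eye 3 it was 0.19. Against Shh-MBs *Ppp3cc* was 1.72-fold higher in lesions, with a log2 difference of 0.79 ± 0.116 (adjusted *p* = 0.000511), whose sign turned to −0.060 on median-centred values.

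*Nfatc1*, the only NFAT factor among the genes measured, was close to the lower limit. Signals were 8.75, 5.43, 2.47 and 15.7 in control eyes, 8.67, 8.21, 10.9, 7.28 and 14.2 in *RBS* lesions, and 6.99, 8.97 and 4.87 in Shh-MBs. These correspond to between 2.32 and 15.5 counts above background. The 3 groups overlapped, and no comparison was called. The 95% interval of the log2 difference between lesions and control eyes, −0.48 to 1.38, includes both a fall and a more than 2-fold rise, so neither can be told from these samples.

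**Figure D2:**
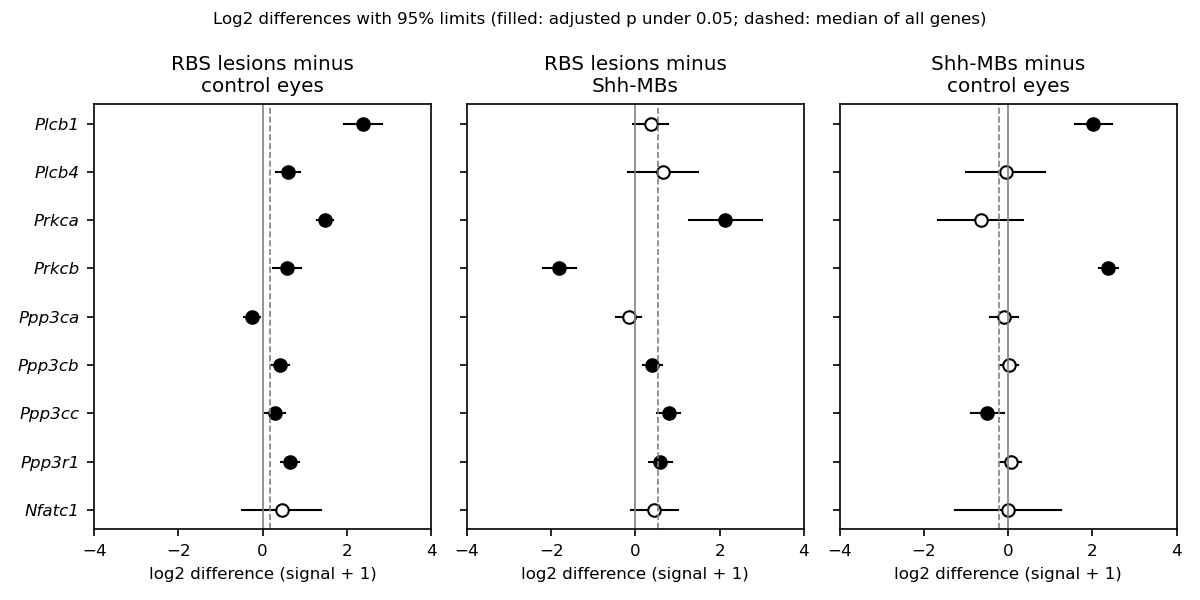
Log2 differences of the 9 genes in the 3 comparisons, on the scale of log2(signal + 1), with 95% intervals from limma. Filled points have an adjusted *p* below 0.05, and the dashed line is the median over all genes (0.17, 0.53 and −0.22), showing *Plcb1* far right in both comparisons with control eyes and *Prkca* and *Prkcb* on opposite sides between lesions and Shh-MBs. The panels share samples, and under median centring the positive differences between lesions and Shh-MBs other than *Prkca* turn below 0.

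Between *RBS* lesions and Shh-MBs, 4 of the 9 genes were higher in lesions and 1 was lower, with 48.1% and 12.7% of the panel called in these directions. These were *Prkca*, *Ppp3cc*, *Ppp3r1* and *Ppp3cb*, and *Prkcb* in the other direction. The groups did not overlap for the same count of 5 genes, against 59.9% of the panel, and the median difference of 0.45 was close to the 0.53 of all genes. The log2 differences of *Ppp3r1* and *Ppp3cb* were 0.59 ± 0.116 (adjusted *p* = 0.00238) and 0.40 ± 0.0973 (adjusted *p* = 0.00703), and turned to −0.26 and −0.45 on median-centred values. *Ppp3ca* was not called, at −0.16 (adjusted *p* = 0.299), but was called lower in lesions under the 3 other scalings, at −1.01, −0.61 and −0.54 with median centring, quantile normalization and a trimmed total. *Prkca* and *Prkcb* kept their direction and passed with limma under every scaling, the deposited one included, and no other member did so.

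Shh-MBs had 2 genes above control eyes, *Plcb1* and *Prkcb*, and 1 below, *Ppp3cc*, where 9.61% of the panel was called higher and 31.4% lower. The groups did not overlap for 3 members and for 48.2% of the panel, and the median difference of the members was −0.00036 beside −0.22 for all genes. *Ppp3cc* was lower by a log2 difference of −0.50 ± 0.162 (adjusted *p* = 0.0486), a call that was lost in 15 of 20 alternatives and a sign that turned to 0.17 on median-centred values. *Ppp3cb*, *Ppp3r1* and *Ppp3ca* differed by 0.021, 0.060 and −0.098 and were not called. Under the same 3 scalings *Ppp3cb* was called higher in tumors, at 0.69, 0.27 and 0.33, as was *Ppp3r1*, at 0.73, 0.32 and 0.37. *Ppp3ca* turned to 0.57 with median centring and was called there alone (limma, adjusted *p* = 0.0125). Control eyes enter both this comparison and that with *RBS* lesions, and the tumors and lesions enter 2 comparisons each, so the counts are given side by side and are not independent.

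Ratios between isoforms within a sample do not depend on a factor that scales the whole sample, and they show unequal change between genes, not which gene changed. They were chosen after the values had been seen and are given without a test. The log2 ratio of *Prkca* to *Prkcb* averaged −1.05 ± 0.180 (SD, n = 4) in control eyes, −0.14 ± 0.324 (n = 5) in *RBS* lesions and −4.08 ± 1.02 (n = 3) in Shh-MBs, with no overlap between groups. The 15.4-fold difference between lesions and tumors combined the high *Prkca* of lesions with the high *Prkcb* of tumors. For *Plcb1* over *Plcb4* the mean was −1.90 ± 0.347 in control eyes, −0.12 ± 0.169 in lesions and 0.18 ± 0.887 in tumors. Control eyes lay below all other samples, and the tumors lay on both sides of the lesions, with Shh-MB 1 below every lesion, at −0.83, and the other tumors above.

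Among calcineurin subunits, the log2 ratio of *Ppp3cb* to *Ppp3ca* was 0.24 to 0.45 in control eyes, 0.90 to 1.18 in *RBS* lesions, while the tumors ranged from 0.18 to 0.73. The ratio was thus higher in every lesion than in any other sample, by 1.60-fold on average over control eyes. *Ppp3cc* over *Ppp3ca* was also higher in lesions, at −2.54 to −2.32, than in control eyes, at −3.28 to −2.73. The ratio of the B subunit gene *Ppp3r1* to *Ppp3cb* moved less, with means of −0.54 in control eyes, −0.31 in lesions and −0.50 in tumors. Lesions lay above control eyes for it but overlapped with tumors.

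**Figure D3:**
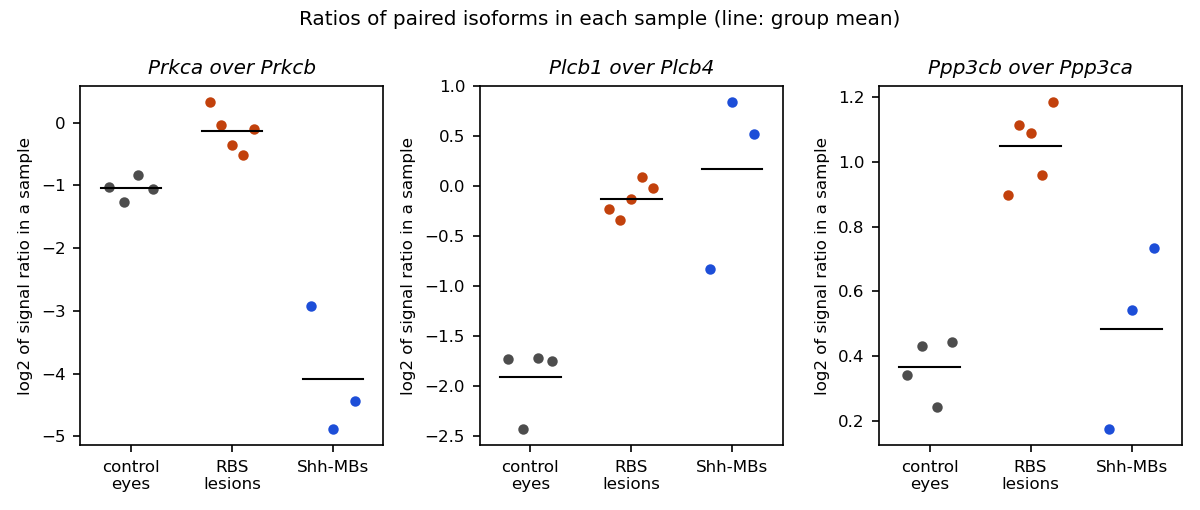
Log2 ratio of the normalized signals of 2 genes within each sample, for *Prkca* over *Prkcb*, *Plcb1* over *Plcb4* and *Ppp3cb* over *Ppp3ca*, in control eyes (n = 4), *RBS* lesions (n = 5) and Shh-MBs (n = 3), with a line at each group's mean. The groups are fully apart for *Prkca* over *Prkcb*, control eyes lie below all other samples for *Plcb1* over *Plcb4*, and lesions lie above all others for *Ppp3cb* over *Ppp3ca*.

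Samples of a group were not alike for all genes. *RBS* lesion 1, the sample of lowest depth with 335350 counts, was the lowest lesion for 5 of the 9 genes (*Plcb1*, *Plcb4*, *Prkcb*, *Ppp3cb* and *Ppp3r1*), and *RBS* lesion 5 was the highest for 6. Shh-MB 1 exceeded both other tumors by at least 2-fold in 70 of the 770 genes, against 3 and 19 genes for Shh-MB 2 and Shh-MB 3. Of the 9 members, *Prkca* and *Plcb4* were among these 70, at 2.80-fold and 2.73-fold over the higher of the other tumors. For *Plcb1*, *Prkcb*, *Ppp3cb* and *Ppp3r1*, Shh-MB 1 lay within 1.09-fold of the higher of the other tumors. *Camk2b*, a calmodulin-dependent kinase of neurons that is no member, was 374 in Shh-MB 1, and 180.4 and 139.7 in the other tumors. Whether other tissue in this tumor has a part in its *Prkca* and *Plcb4* was not tested.

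Between control eyes and *RBS* lesions, neuron markers moved with the genes that rose in lesions. Of 18 listed markers, 9 are on the panel (*Mapt*, *Grin1*, *Grin2a*, *Grin2b*, *Gria3*, *Cacna1e*, *Camk2b*, *Ntrk2* and *Baiap3*), none of them at the lowest value throughout a group, and their summed signal was 1065 to 1199 in control eyes and 3269.7 to 4257 in *RBS* lesions. In the tumors the sum was 1985 in Shh-MB 1, and 1332 and 1266 in the others. Lesions thus exceeded control eyes in this sum without overlap, as they did for *Plcb1*, *Prkca*, *Ppp3r1* and *Ppp3cb*, and the part of neurons in those differences was not tested. The tumors also exceeded control eyes in this sum but stayed below every lesion, whereas their *Prkcb* was above that of every lesion. Their *Plcb1*, at 231 to 252, overlapped with that of lesions. *Prkca* of Shh-MB 2 and Shh-MB 3, at 40.8 and 54.1, lay below that of every control eye, and *Ppp3r1* and *Ppp3cb* of tumors overlapped with those of control eyes.

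Other tissue markers bear on what the samples hold. The mesenchyme markers (8 of 10 on the panel) summed to between 26160.1 and 59096 in control eyes, 20482 and 37837 in *RBS* lesions, but only 1562 and 2188 among the tumors. The retina could be judged by *Fgf15* alone, 1 of 10 listed markers, at 835 to 1094 in control eyes and 74.6 to 152 in lesions. It was 1 to 4.87 in tumors. The precursor markers of cerebellar granule neurons (3 of 7 on the panel, *Mycn*, *Gli1* and *Ccnd2*) summed to 6080.0 to 7507 in tumors, above the 2018 to 2210 of control eyes and the 1638 to 1782 of lesions. *Prkcb* was likewise highest in tumors. *Ccnd2* of this list is also 1 of the genes nearest to *Prkcb* in pattern, as given below, and unlike the sum it had a higher mean in lesions (937) than in control eyes (743), a difference that was not called (adjusted *p* = 0.106). None of the 8 lens markers is on the panel, so the lens could not be judged. Surface epithelium markers (6 of 9 on the panel) summed to 494 to 861 in lesions, above the 246 to 437 of control eyes and the 10.7 to 24.6 of tumors, where *Itga2* and *Calml3* were at the lowest value throughout. *Prkca*, *Ppp3cc*, *Ppp3r1* and *Ppp3cb* were likewise higher in every lesion than in any other sample. *Calml3* is also on the list of other pathway genes, as is *Camk2b* of the neuron list. The endothelium markers *Kdr* and *Flt1* (2 of 6) went the other way, at 1683 to 2163 in control eyes, 622 to 858 in lesions and 93.8 to 196 in tumors. Muscle markers (3 of 9, *Cacng1*, *Fgfr4* and *Itga7*) summed to 275 to 323 in tumors, with *Cacng1* at the lowest value in all of them, and to 17.3 to 79.4 in control eyes and 34.3 to 91.7 in lesions. How far these shares of tissue set the levels of the 9 genes was not tested.

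The wider pathway was read from a list of 92 other genes, of which 23 are on the panel. In *RBS* lesions 17 of these 23 were higher than in control eyes, 1 was lower and 5 were not called, where 33% of the panel was called higher and 18.2% lower, with a median log2 difference of 1.04 against 0.17 for the panel. The counts of 17 and 1 were the same with median centring and with quantile normalization. With values under 20 set to 20 they were 13 and 1, with a median of 0.56, and with the methods' t-test after Bonferroni adjustment 3 and 0. All 7 G protein subunit genes were called, 6 of them higher. *Gng4*, a G protein gamma subunit, had the largest rise that separated the groups, from a mean signal of 67.8 ± 17.0 (SD) to 266 ± 47.1 (log2 difference 1.98 ± 0.206, adjusted *p* = 7.39e-05). *Camk2b* rose by 1.69 ± 0.120 (adjusted *p* = 9.12e-06), and *Rasgrf2*, a calcium-dependent exchange factor for Ras, by 1.68 ± 0.148 (adjusted *p* = 2.81e-05).

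Upstream of phospholipase C beta, *Gnaq*, the G protein alpha subunit that activates it, was 716 ± 38.4 in control eyes and 1672 ± 159 in *RBS* lesions, a difference of 1.22 ± 0.0970 (adjusted *p* = 1.63e-05). *Plce1*, another phospholipase C, rose by 1.25 ± 0.146 (adjusted *p* = 0.000134). *Gnaq*, *Plce1*, and the Wnt ligands and *Gna11* below were named after their values had been seen, for their place in the pathway. The 1 gene lower in lesions was *Gngt1*, the gamma subunit of rod transducin, at 31.3 to 55.6 in control eyes and 1.21 to 17.1 in lesions (log2 difference −2.69 ± 0.610, adjusted *p* = 0.00538). It moved with the retina marker *Fgf15*, and its lesion values lie near the lower limit. *Wnt5a*, a ligand of the calcium branch, was higher in lesions by 1.11 ± 0.176 (adjusted *p* = 0.000738), whereas *Wnt5b* and *Wnt11* differed by −0.17 and −0.26 and were not called.

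Against Shh-MBs, 14 of the 23 genes were higher in *RBS* lesions, 1 was lower and 8 were not called, where 48.1% of the panel was called higher and 12.7% lower, with a median of 1.49 against 0.53 for the panel. On median-centred values the counts were 10 and 3, with a median of 0.64, and with the methods' t-test after Bonferroni adjustment they were 4 and 0. *Rasgrf2* was 126 to 188 in lesions, and in tumors it was 9.22 in Shh-MB 1 and at the lowest value in the others (adjusted *p* = 5.05e-05). *Calml3*, a calmodulin-like gene of epithelia, and *Wnt11* were at the lowest value in all 3 tumors, so that no fold is given, while their means were 358 ± 83.4 and 52.9 ± 14.8 in lesions. *Fzd2*, a Wnt receptor, was lower in lesions than in tumors by −0.52 ± 0.128 (adjusted *p* = 0.00745). Its difference was below 0 under each of the 21 alternatives and was called in 19, the call being lost with the replicate block and with the methods' t-test after Bonferroni adjustment.

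Between Shh-MBs and control eyes, 2 of the 23 genes were higher and 11 lower, where 9.61% of the panel was called higher and 31.4% lower, with a median of −0.31 beside −0.22 for the panel. The counts were 6 and 8 on median-centred values, where the median turned to 0.35, 0 and 2 with the methods' t-test after Bonferroni adjustment, and 0 and 0 with the exact permutation test. *Fzd2* was 1 of the 2, at 274 ± 12.1 in tumors and 190 ± 32.3 in control eyes (log2 difference 0.54 ± 0.151, adjusted *p* = 0.0277), and was called in 12 of 20 alternatives. The other, *Ppp3r2*, an alternative calcineurin B subunit known from testis, was 2.33 to 5.87 in tumors and 1.01 to 1.71 in control eyes, which is too near the lower limit for a fold to be read. *Calml3*, *Wnt11* and *Gngt1* were lower, at the lowest value in all 3 tumors beside means of 189 ± 51.9, 63.3 ± 16.4 and 45.6 ± 11.8 in control eyes. *Gnaq* differed by −0.27 (adjusted *p* = 0.0952), and its sign turned under 3 scalings. *Gna11*, another alpha subunit of the Gq class, differed by 0.43 and was not called either (adjusted *p* = 0.0559). All tumors lay above all control eyes for *Gna11*, which kept its sign in all 20 alternatives and was called in 8.

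**Figure D4:**
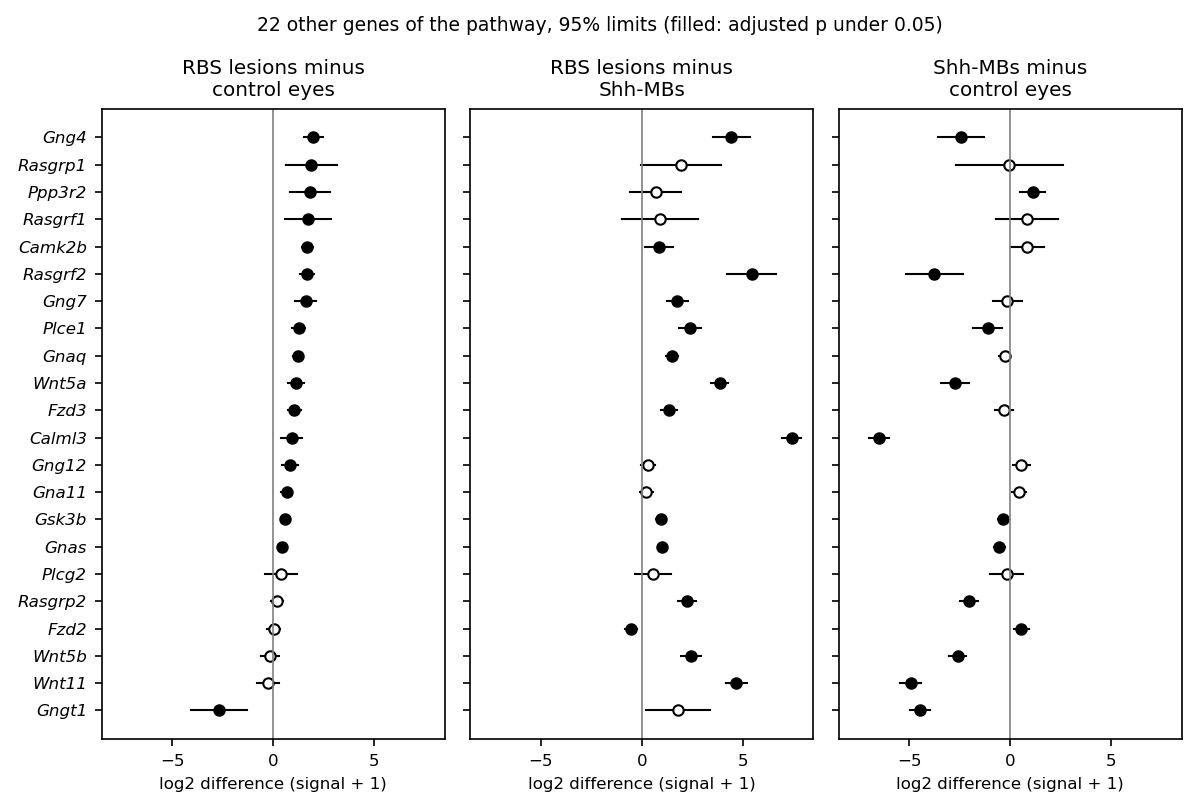
Log2 differences of 22 of the 23 other pathway genes in the 3 comparisons, on the scale of log2(signal + 1), with 95% intervals from limma and with filled points where the adjusted *p* is below 0.05. Genes are ordered by the first panel, where 16 of those drawn lie right of 0 as filled points and *Gngt1* alone lies left as one. *Calml3*, *Wnt11* and *Gngt1* are at the lowest value in all tumors, so their positions in the panels with Shh-MBs depend on the 1 added to each signal. The same holds in the panels with control eyes for genes near the lowest value there, such as *Ppp3r2* at 1.01 to 1.71.

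The genes whose pattern over the 12 samples was most like that of each member were taken from 478 genes with a mean signal of at least 20 in every group. Likeness was the root mean square difference of the log2 values after centring each gene on its mean over the 3 groups, so a low value is a near match. *Ppp3cb* and *Ppp3r1* shared the nearest gene, *Fbxw11*, at 0.064 and 0.080. *Ppp3cc* was nearest to *Crebbp* (0.11) and *Tsc2* (0.12). *Ppp3ca* was nearest to *Cdkn2d* and *Sf3a3* (both 0.13), and *Sf3a3* is a reference gene of the normalization.

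The genes with larger differences had less close neighbours. *Plcb1* was nearest to *Ptch1* (0.35), the Hedgehog receptor, and to *Mapk10* (0.46). Relative to their own means, *Plcb1* and *Ptch1* stood at −1.47 and −1.54 in control eyes, 0.91 and 0.67 in *RBS* lesions, and 0.56 and 0.87 in Shh-MBs on the log2 scale, so both were low in control eyes alone. *Prkcb* was nearest to *Cdk6* (0.33) and *Ccnd2* (0.36), both genes of the G1 phase of the cell cycle and both highest in Shh-MBs. *Prkca* was nearest to *Tspan7* and *Plce1* (both 0.33), and *Plcb4* to *Cacna1d* (0.28) and *Kit* (0.29). *Nfatc1*, near the lower limit, had no close match, with *Ets2* at 0.39 and *Zak* at 0.40.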

How the data were processed

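RNA of 12 mouse samples was counted on the nCounter Mouse PanCancer pathways panel. The authors normalized the counts with nSolver 4.0.70 and nCounter Advanced Analysis, and the deposited signal is linear. A background had been subtracted from it, with a floor near 1. In each sample the geometric mean of 20 reference genes was 638, with a range of 0.000126%. That list was put together after the gene names had been seen. Low values lie on steps of 0.810 to 1.64, and depth is the total divided by the step.

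Comparisons used limma 3.58.1 (R 4.3.3) on log2(signal + 1), two-sided, unfiltered, separately for each pair of groups, with Benjamini-Hochberg adjustment over 770 genes. Simulated 2-fold changes were checked first. Members, lists and tests were chosen with earlier results of these data known. Named were all 9 members, the 3 largest called rises and falls without overlap among other pathway genes, and 2 nearest genes per member, leaving out genes that are not reported here, 1 of which is left out of the pathway plot but is in its counts. Alternatives were another pseudocount (5), a floor or filter at 20, 3 scalings, other fits and tests, a replicate block and each sample left out. One, the block's samples without the block, was added after seeing the data. Figures used matplotlib 3.10.9. *p*-values measure the spread between individual animals.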

Additional observations from a re-analysis of the deposited data

Results flagged for a closer look

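*Plcb4* in control eye 3 lay apart from the other control eyes. Its signal of 195 was the lowest of the 4, where the others were between 229 and 235, and its gap to the nearest was 0.880 of the range of the group on the scale of log2(signal + 1), above the critical value for 4 samples. It was the only such sample among the 18 sets of a gene and a group examined. Chance gives about 1 in 20 sets, so 1 among 18 is near what chance gives. Shh-MBs, with fewer than 4 samples, were not examined in this way. Control eye 3 was also the lowest control eye for *Ppp3cb*, *Ppp3cc*, *Nfatc1* and *Prkcb*.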

How the results depend on the processing

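The differences of *Plcb1* and *Prkca* between *RBS* lesions and control eyes kept their direction and their call under all 22 alternatives, and no member changed direction in that comparison. Scaling decided the direction of smaller differences from Shh-MBs, and leaving out Shh-MB 1 brought calls of *Prkca* and *Plcb4* against control eyes and of *Plcb4* against lesions. Bonferroni stands below for the methods' t-test with that adjustment, a change of both test and adjustment. It was run without the permutations of the authors' methods, so its counts are not those of the authors' own test. The same t-test after Benjamini-Hochberg adjustment called 347, 380 and 217 genes in the 3 comparisons. The cause was not tested. *Nfatc1* and *Ppp3r2* lie near the lower limit, and *Nfatc1* also varied between animals of like depth, at 2.47 and 15.7 in control eyes 3 and 4.

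Of the 9 genes, 7 were higher when *RBS* lesions were set against control eyes, 4 with median centring, 2 with the methods' t-test after Bonferroni adjustment and 4 with the replicate block. The 1 called lower became 0 in the fit of all 12 samples, with Bonferroni, with the block and in the block's samples without it, and 0 to 1 when 1 sample was left out. Over the panel 394 genes were called, and 69 with Bonferroni. Genes higher were 64.5% of those called, 50.0% after median centring and 51.1% after quantile normalization.

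For *RBS* lesions against Shh-MBs, 4 members higher and 1 lower became 1 and 3 with median centring, 1 and 2 after quantile normalization, 2 and 2 when samples were scaled to a total that leaves out their 3 most abundant genes (the trimmed total), and 0 and 0 with Bonferroni. The block left 2 higher. Genes called fell from 468 to 74 with Bonferroni, and the share higher from 79.1% to 36.2% with median centring and 46.6% with quantile normalization. Log2 differences turned with median centring to −0.45 for *Ppp3cb*, −0.060 for *Ppp3cc*, −0.26 for *Ppp3r1*, −0.40 for *Nfatc1*, −0.49 for *Plcb1* and −0.19 for *Plcb4*. With quantile normalization *Nfatc1* turned to −0.86 and *Plcb1* to −0.21, and with the trimmed total *Plcb1* turned to −0.015.

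For Shh-MBs against control eyes, 2 members higher and 1 lower became 5 and 0 with median centring, 4 and 0 after quantile normalization, 4 and 0 with the trimmed total, 1 and 0 with Bonferroni, and 0 and 0 with the exact permutation test, whose smallest *p*-value here is 0.0286. No member was called lower with values under 20 set to 20, with the methods' t-test after Benjamini-Hochberg adjustment, with the block or in its samples without it (0 each), and 0 to 2 were when 1 sample was left out. Genes called were 316, 35 with Bonferroni and 0 with the permutation test, which without adjustment gave 313 genes and 2 members a *p*-value below 0.05. The share higher was 23.4%, 69.1% after median centring and 60.1% after quantile normalization. Log2 differences turned to 0.57 for *Ppp3ca*, 0.17 for *Ppp3cc*, 0.67 for *Nfatc1*, 0.013 for *Prkca* and 0.61 for *Plcb4* with median centring, to 0.14, 0.032, 1.11, 0.059 and 0.35 in the same order with quantile normalization, and to 0.22 for *Ppp3ca*, 0.28 for *Nfatc1* and 0.26 for *Plcb4* with the trimmed total. When 1 sample was left out, differences ranged from −0.57 to 0.25 for *Plcb4*, from −0.23 to 0.023 for *Ppp3ca*, from −0.012 to 0.051 for *Ppp3cb* and from −0.39 to 0.37 for *Nfatc1*.

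Replicate numbers did not pair the samples, since the correlation of deviations of same-numbered samples lay between −0.15 and 0.19. With the replicate block *Nfatc1* turned to 0.37 between Shh-MBs and control eyes, and it was 0.37 in the same samples without the block. The block called 301, 407 and 230 genes in the 3 comparisons.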
